A study of Citrus sinensis and Citrus junos and Citrus trifoliata with 12 samples.

Results

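A small group of 11 genes, of 26559 with any estimated count in the series, was expressed in every leaf and every root library and was low in every stem library. They were chosen on their FPKM (sequenced fragments of a gene scaled by its length and by the size of the library), with a gene that a table does not list taken as 0. A member had at least 2 FPKM in all 8 leaf and root libraries, and the lowest of these was at least 2 times the highest of the 4 stem values. Its group means in leaf and root lay within a factor of 5 of each other, and its mean in leaves on one rootstock was less than 1.5 times that in leaves on the other. The low stem level is therefore how the genes were picked and is given as a description, without a test. Leaf, root and stem values all entered the choice, so every contrast among them is bounded by it, and the counts of members called below are descriptions.

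The trees were made by grafting 'Lane Late' navel orange (Citrus sinensis), the scion, on a rootstock of Ziyang xiangcheng (Citrus junos, written Cj) or of trifoliate orange (Poncirus trifoliata, written Pt). The 12 libraries are leaves, roots and stems of trees on Cj and on Pt, with 2 libraries in each of the 6 groups, all labelled 140 DAF. The trees stood in one orchard from 2009, and the libraries were read in 2015. Saline-alkali stress appears in the title of the series, but no label sets stressed trees against unstressed ones. By their labels the groups differ in organ and rootstock only. Leaf and stem in this design are scion tissue and roots are rootstock tissue, so a leaf and root comparison is also one of species. The sample titles mark the replicates as biological ones (bio), but no label tells whether they are different trees, and p-values cover only the spread among these libraries. Estimated counts per library ran from 9356633 to 11383332.

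In a grafted tree the roots take up water and mineral nutrients, the leaves carry out photosynthesis, and the stem between them holds the wood and phloem that connect them. A transcript can be low in a bulk sample because fewer cells of a type make it or because each cell holds less of it, and these cannot be told apart here. Of the 26559 IDs, 0 matched the RefSeq table of the sweet orange assembly DVS_A1.0, so no gene name or function is stated for any member and the organ labels were not checked against organ markers.

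The pattern was rare. Of 11203 genes at the level of 2 FPKM in all leaf and root libraries, 23 (0.205%) were also at least 2 times the highest stem value. With the same floor and fold, 349 of 11643 genes (3.00%) were shared by root and stem and low in leaf, and 4204 of 15243 (27.6%) were shared by leaf and stem and low in root. Leaf and stem are of one species and the roots are of others, so these shares mix organ with species. They were taken on FPKM not corrected for library composition, a correction that raises root values against the other organs. The shares were not computed on the corrected scale. The number of members also depends on the scale: with FPKM corrected for library composition, 22 genes met all conditions instead of 11. Of the 23 genes, 8 fell outside the bound on the group means alone, 2 outside the bound on the leaf ratio alone and 2 outside both. Among the 8211 genes inside both bounds at any stem level, 216 had all 8 leaf and root values above all 4 stem values, and the 11 members are those with the widest gap.

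**Figure D1:**
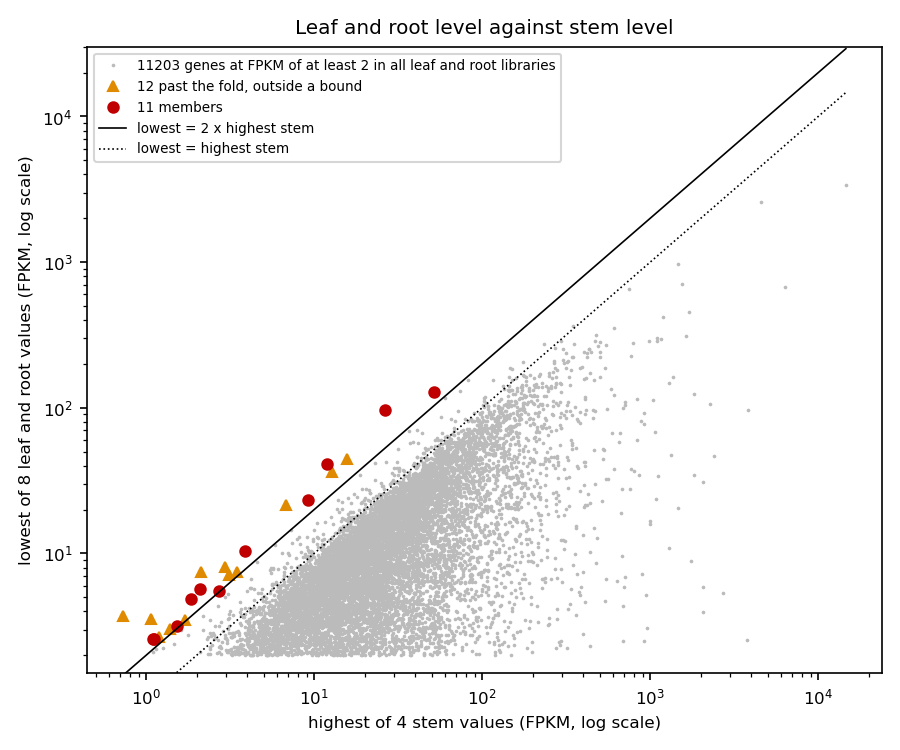
Lowest of the 8 leaf and root values (vertical, FPKM, log scale) against the highest of the 4 stem values (horizontal, FPKM, log scale) for 11203 genes. The 11 members (circles) and the 12 genes outside a bound (triangles) lie above the solid line at a ratio of 2, and nearly all other genes lie below the dotted line at a ratio of 1.

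Stem RNA of the members was reduced, not absent. The mean of the 4 stem libraries was between 11.3% (Cs1g02370) and 30.0% (Cs3g18140) of the mean of the 4 leaf and root groups, with a median of 18.4%. The lowest leaf or root value was 2.03 to 3.62 times the highest stem value. The members ranged from 3.68 to 167 FPKM in mean leaf and root level (median 13.0 FPKM, against 20.4 FPKM for all 11203 genes at the floor).

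**Figure D2:**
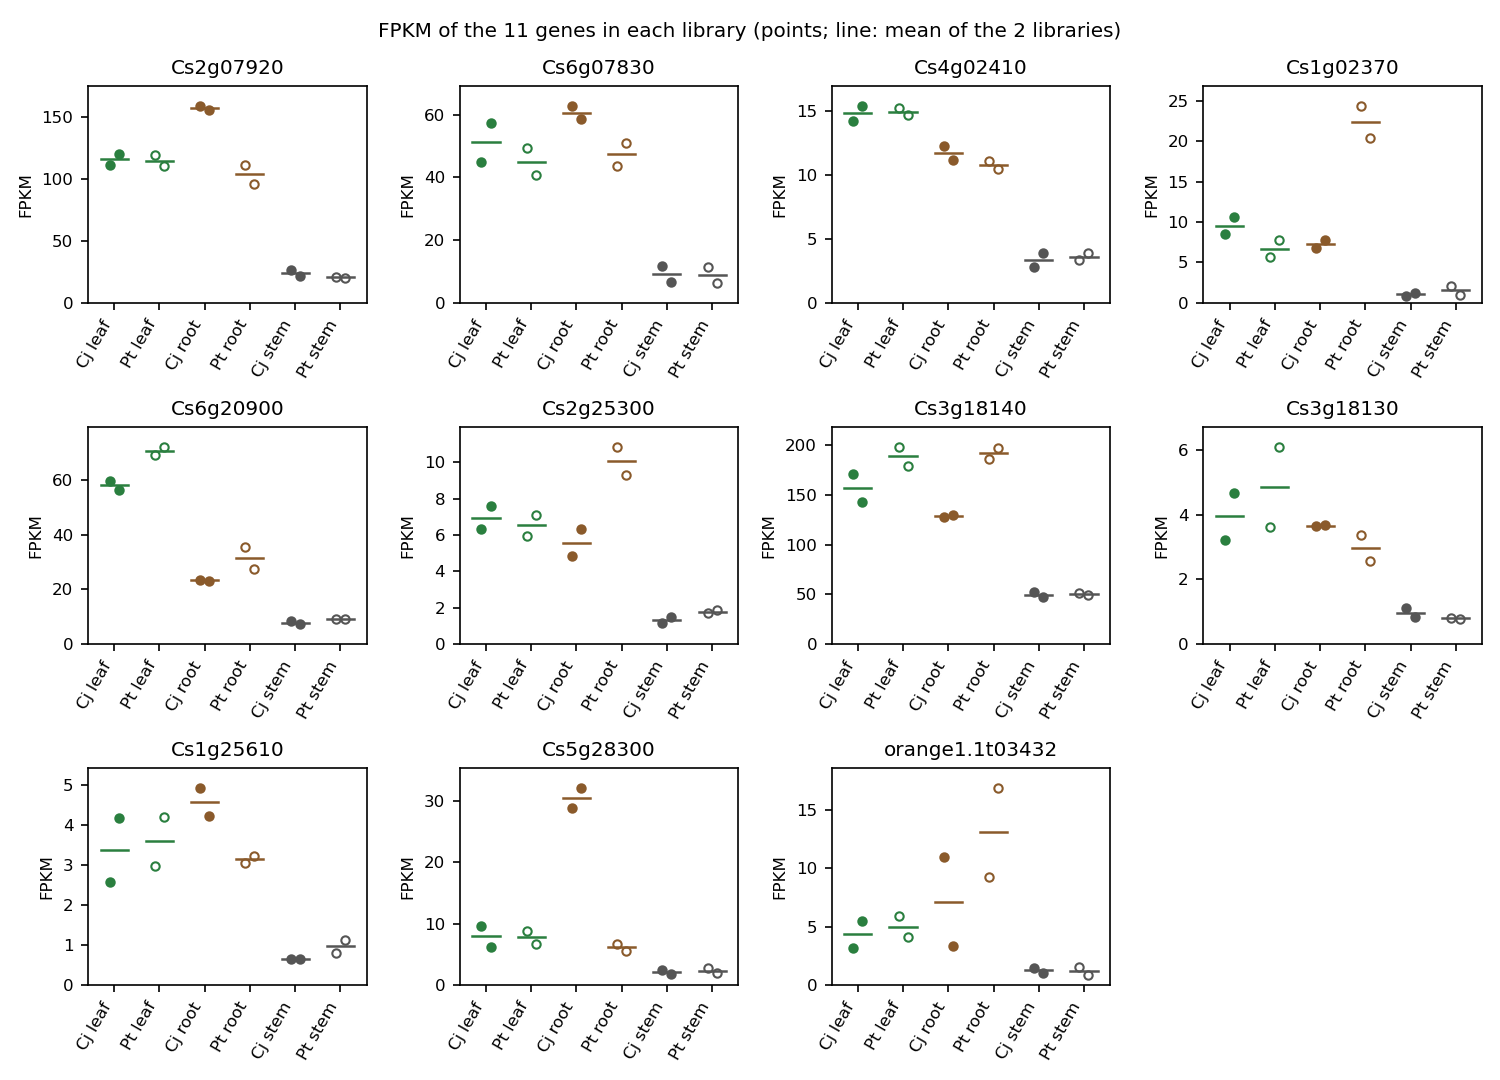
FPKM of each of the 11 members in the 12 libraries (points, filled for trees on Cj and open for trees on Pt; lines are means of the 2 libraries), in leaf, root and stem from left to right, with a vertical axis from 0 in each panel. In every panel all 4 stem points lie below all 8 leaf and root points, and Cs5g28300 and Cs1g02370 differ most between the roots of the rootstocks.

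The widest gaps to stem were those of Cs2g07920 and Cs6g07830. Cs2g07920 stood at 111 and 120.3 FPKM in leaves on Cj, 119 and 110.2 in leaves on Pt, 159 and 156 in roots of Cj and 111 and 96.2 in roots of Pt, against 26.6 and 21.8 FPKM in stems on Cj and 21.0 and 20.3 in stems on Pt. The roots of Cj were the highest of its groups, and the leaves of both rootstocks lay close together. Cs6g07830 stood at 45.0 and 57.4 FPKM in leaves on Cj, 49.2 and 40.9 in leaves on Pt, 62.8 and 58.5 in roots of Cj and 43.5 and 51.1 in roots of Pt. Its stems gave 11.9 and 6.5 FPKM on Cj and 11.5 and 6.45 on Pt, so replicate 1 was the higher one on both rootstocks, and the replicates of one group differed more than the rootstocks did.

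The most abundant member was Cs3g18140. It stood at 171 and 143 FPKM in leaves on Cj, 199 and 179 in leaves on Pt, 128 and 129 in roots of Cj and 186 and 198 in roots of Pt, against 51.9 and 47.0 FPKM in stems on Cj and 51.7 and 49.1 in stems on Pt. It also had the highest stem level of the 11, and in leaf as in root the libraries on Cj lay below those on Pt without overlap. The steadiest across leaf and root was Cs4g02410, whose highest leaf or root value was 1.47 times its lowest. It stood at 14.2 and 15.4 FPKM in leaves on Cj, 15.2 and 14.7 in leaves on Pt, 12.2 and 11.1 in roots of Cj and 11.1 and 10.4 in roots of Pt. All its leaf values in FPKM were above all its root values, and its stems gave 2.79 and 3.90 FPKM on Cj and 3.33 and 3.89 on Pt. In edgeR, which corrects for library composition, its log2 leaf minus root was -0.07 ± 0.16 (SE) on Cj and 0.11 ± 0.16 on Pt. Neither was called.

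Cs6g20900 was the member with the strongest lean to leaf. It stood at 59.8 and 56.4 FPKM in leaves on Cj and 69.2 and 72.2 in leaves on Pt, at 23.3 and 23.1 in roots of Cj and 35.5 and 27.3 in roots of Pt, against 8.23 and 7.25 FPKM in stems on Cj and 9.14 in both stems on Pt. The leaf mean was 2.50 times the root mean on Cj and 2.25 times on Pt. In leaf, root and stem the libraries on Cj lay below those on Pt without overlap.

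Members that were uneven between the roots fell to both sides. Cs5g28300 stood at 9.60 and 6.26 FPKM in leaves on Cj, 8.73 and 6.75 in leaves on Pt, 28.9 and 32.2 in roots of Cj and 6.73 and 5.55 in roots of Pt, against 2.37 and 1.84 FPKM in stems on Cj and 2.73 and 1.89 in stems on Pt. Only its Cj roots stood apart from the other leaf and root libraries, at a root mean 4.98 times that of Pt, just inside the bound of 5. Cs1g02370 was the reverse, at 6.76 and 7.74 FPKM in roots of Cj and 24.4 and 20.3 in roots of Pt, with 8.47 and 10.6 in leaves on Cj and 5.67 and 7.72 in leaves on Pt. Its stems gave 0.81 and 1.28 FPKM on Cj and 2.10 and 0.97 on Pt, where the rootstocks overlapped. Cs2g25300 leaned the same way more mildly, at 4.85 and 6.31 FPKM in roots of Cj and 10.9 and 9.32 in roots of Pt. It had 6.32 and 7.59 FPKM in leaves on Cj, 5.95 and 7.13 in leaves on Pt, 1.16 and 1.48 in stems on Cj and 1.70 and 1.84 in stems on Pt.

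The remaining 3 members were weak, Cs3g18130 and Cs1g25610 in level and orange1.1t03432 in counts. Cs3g18130 stood at 3.22 and 4.68 FPKM in leaves on Cj, 3.63 and 6.11 in leaves on Pt, 3.65 and 3.67 in roots of Cj and 3.38 and 2.57 in roots of Pt, against 1.1 and 0.82 FPKM in stems on Cj and 0.81 and 0.78 in stems on Pt. Cs1g25610 stood at 2.57 and 4.17 FPKM in leaves on Cj, 2.98 and 4.21 in leaves on Pt, 4.94 and 4.24 in roots of Cj and 3.06 and 3.24 in roots of Pt, against 0.64 and 0.66 FPKM in stems on Cj and 0.81 and 1.12 in stems on Pt. Their stem values rest on 14 to 19 and 11 to 20 estimated counts per library, and Cs1g25610 leaned to Cj in root and to Pt in stem. Stem counts per library were similarly low for Cs5g28300 (14 to 21) and Cs2g25300 (14 to 23).

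The shortest member, orange1.1t03432 (281 bases), rests on the fewest counts. It stood at 3.15 and 5.51 FPKM in leaves on Cj, 5.86 and 4.12 in leaves on Pt, 10.9 and 3.32 in roots of Cj and 9.27 and 16.9 in roots of Pt, against 1.47 and 1.0 FPKM in stems on Cj and 1.53 and 0.81 in stems on Pt. The stem libraries held 2.22 to 4.36 estimated counts each and 13 when summed and rounded. Summed in the same way, its leaf libraries held 52 counts and its root libraries 96. Cs3g18140, the deepest member, had 6395 counts in stem, with 22458 in leaf and 16038 in root. Replicates of orange1.1t03432 in roots of Cj differed by more than the group means of Cj and Pt roots did.

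The edge of the group is narrow. The members just inside the fold were orange1.1t03432 (2.06) and Cs5g28300 (2.03), and the genes just outside were orange1.1t00647 (1.93) and Cs7g04600 (1.90). For orange1.1t00647 either of a pair of libraries decided this. Its highest stem value was 59.9 FPKM on Pt, beside 30.2 in the other stem on Pt and 20.2 and 16.6 in stems on Cj, and its lowest leaf or root value was 116 FPKM in a leaf on Pt. It met all conditions without Pt stem replicate 1, and also without Pt leaf replicate 2. Of the genes outside a bound, orange1.1t00401 had the widest gap to stem (5.10), at 3.75 and 3.77 FPKM in leaves on Cj, 3.72 and 4.24 in leaves on Pt, 18.0 and 18.9 in roots of Cj and 19.9 and 19.3 in roots of Pt. Its stems gave 0.73 and 0.50 FPKM on Cj and 0.12 and 0.38 on Pt, and its group means differed by a factor of 5.22. Leaving out Cj root replicate 1 or Pt root replicate 1 removed Cs5g28300. Cs1g02370 was removed without Cj leaf replicate 1 or Pt leaf replicate 2, Cs3g18130 without Cj leaf replicate 2 or Pt leaf replicate 1, and orange1.1t03432 without Cj leaf replicate 2.

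A pair of members had neighbouring IDs. Cs3g18130 and Cs3g18140 follow each other among the listed IDs, yet their mean leaf and root levels were 3.86 and 167 FPKM. Beside them, Cs3g18120 was listed in 1 library only (0.12 FPKM), and Cs3g18150 stood at 13.6 and 15.4 FPKM in leaves on Cj and 12.8 and 13.6 in leaves on Pt, with 6.49 and 5.42 in roots of Cj, 2.94 and 4.02 in roots of Pt, 8.81 and 9.56 in stems on Cj and 8.01 and 9.92 in stems on Pt. Neither flank shared the pattern. Around all members there were 20 adjacent listed IDs that were no member. Of these, 12 reached 2 FPKM in all leaf and root libraries and 0 had every leaf and root value above every stem value. Over the series, 11203 of 26559 IDs reached that floor. Only 216 of the 8211 at the floor and inside both bounds had all leaf and root values above stem, so nothing is read from the count of 0.

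The members had a median length of 1531 bases, against 1831 bases for the 11203 genes at the floor, and 7 of 11 (63.6%) had a single listed transcript, against 48.6% of those genes. The IDs began with Cs1g, Cs2g, Cs3g and Cs6g (2 members each), Cs4g and Cs5g (1 each) and orange1.1 (1). Replicates agreed less closely than for genes at the floor in general. The comparison was not matched for level: members were picked for low stem values, and their median leaf and root level was 13.0 FPKM against 20.4. The median size of the log2 ratio between replicates was 0.32 for members and 0.16 for all genes at the floor in leaves on Cj, 0.27 and 0.16 in leaves on Pt, 0.37 and 0.16 in stems on Cj and 0.22 and 0.16 in stems on Pt. In roots it was 0.13 and 0.10 for Cj and 0.23 and 0.14 for Pt.

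The stems of trees on Cj and on Pt were compared with each other as scion tissue of one cultivar. The rule set no ratio between them, but it capped all 4 stem values, which removes genes high in stem on either rootstock, so nothing is read from the count. None of the 11 was called (edgeR's quasi-likelihood test, adjusted p under 0.05 over 21261 genes), against 4.43% of all genes tested, 2.51% higher and 1.91% lower on Cj. The count of members at an unadjusted p under 0.05 was also 0, as were the counts called by DESeq2 and by limma on log2 FPKM. The log2 fold changes, Cj minus Pt, ran from -0.56 ± 0.41 (SE) in Cs1g25610 to 0.28 ± 0.42 in Cs3g18130, with a median of -0.07 against -0.0035 over all genes.

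The precision of the stem estimates differed widely between members. For Cs3g18140 the estimate was 0.0091, and 2 standard errors to either side reach from -0.25 to 0.26 on the log2 scale. Cs4g02410 had -0.07, with the same span from -0.47 to 0.33, and Cs2g07920 had 0.25, from -0.07 to 0.56. For orange1.1t03432 the span was -1.64 to 2.16, so differences of more than 2-fold in either direction lie within it. A level more than 2-fold lower on Cj lies within the spans of Cs1g25610 (-1.38 to 0.27), Cs1g02370 (-1.31 to 0.22) and Cs2g25300 (-1.04 to 0.23). One more than 2-fold higher on Cj lies within that of Cs3g18130 (-0.57 to 1.12). Cs6g07830 had 0.06 ± 0.29 (SE), and its sign depended on the libraries used: it was -0.47 with Cj stem replicate 1 dropped, 0.45 with Cj stem replicate 2 dropped, 0.51 with Pt stem replicate 1 dropped and -0.28 with Pt stem replicate 2 dropped. In leaf, where the rule itself holds the ratio, the mean on Cj was 0.811 to 1.42 times the mean on Pt.

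**Figure D3:**
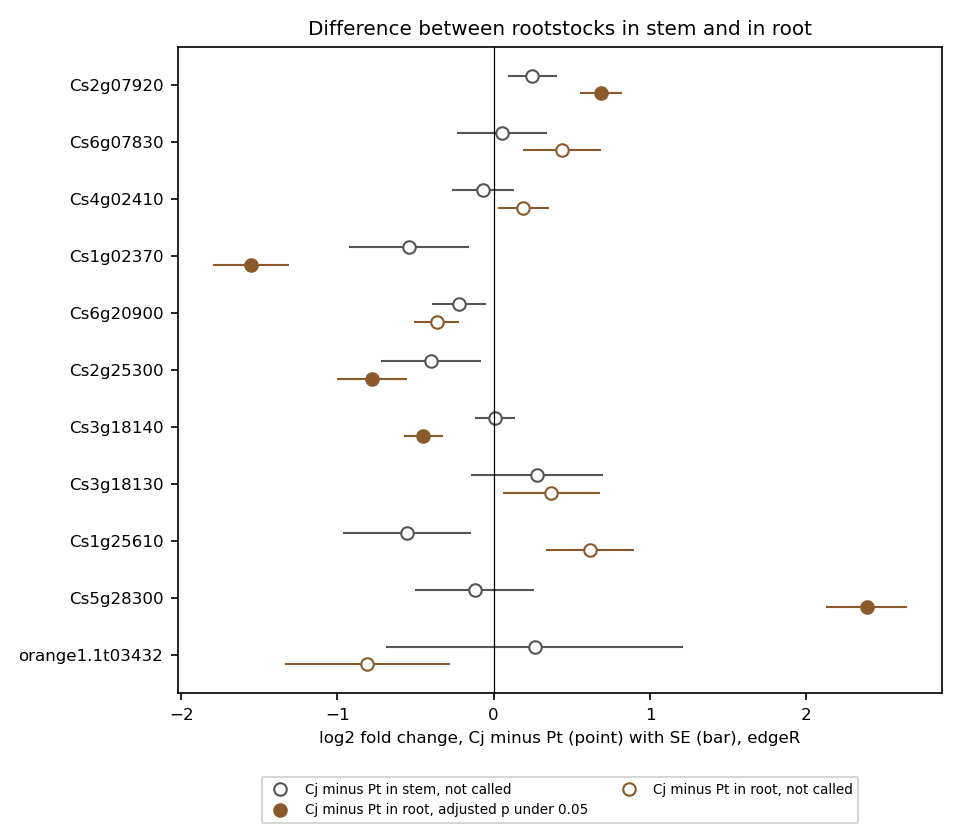
Log2 fold change of Cj minus Pt (horizontal; bars are SE) for each member (vertical) in stem and in root, from edgeR with 2 libraries per group; filled points have an adjusted p under 0.05. All stem points are open and lie between -0.56 and 0.28, while the root points spread from -1.55 to 2.39.

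In roots, where Cj and Pt are different species, 5 of 11 members were called, 2 higher and 3 lower in Cj, against 51.7% of all genes tested (27.4% higher and 24.3% lower). The rule bounds this contrast, so nothing is read from that share. The higher ones were Cs5g28300 (log2 fold change 2.39 ± 0.26, SE) and Cs2g07920 (0.69 ± 0.13). The lower ones were Cs1g02370 (-1.55 ± 0.24), Cs2g25300 (-0.78 ± 0.22) and Cs3g18140 (-0.45 ± 0.13). Cs6g20900 (-0.37 ± 0.15) was at the threshold and not called, with an adjusted p of 0.0506 in edgeR's quasi-likelihood test. Cs2g25300 was not called without Cj root replicate 1 or without Pt root replicate 1, and Cs3g18140 not without Cj root replicate 1. Cj, Pt and sweet orange share a single ID set in these tables; how well the reads of each species align to it was not tested.

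The rootstock difference in stem was set against that in root by an interaction term, fitted in edgeR and added after seeing the data. Of 11 members 1 was called, Cs5g28300 (lower), against 36.8% of all genes tested (17.3% higher and 19.5% lower). Its mean was 2.10 ± 0.375 FPKM in stems on Cj and 2.31 ± 0.594 in stems on Pt, and 30.6 ± 2.29 FPKM in roots of Cj and 6.14 ± 0.834 in roots of Pt (SD, n = 2 each). Its stem libraries held 14 to 21 estimated counts each. The stem difference minus the root difference was -2.51 ± 0.46 (SE, log2). The rule capped its stem values and held its root difference under a factor of 5, which it nearly reaches, so this value is a description.

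Leaf against root was likewise held within bounds by the rule, and counts are given as a description. In trees on Cj 5 of 11 members were called, 1 higher and 4 lower in leaf, against 80.5% of all genes (42.2% higher and 38.3% lower). Cs6g20900 was higher in leaf (log2 0.90 ± 0.14, SE), and the lower ones were Cs5g28300 (-2.36 ± 0.25), Cs1g25610 (-0.87 ± 0.28), Cs2g07920 (-0.83 ± 0.13) and Cs6g07830 (-0.67 ± 0.25). Cs6g07830 was not called by limma on log2(FPKM + 1) or log2(FPKM + 0.1) (-0.25 on both), nor without Cj root replicate 1, Cj root replicate 2 or Cj leaf replicate 1. Cs1g25610 was not called on these scales either (-0.38 and -0.47), nor without Cj root replicate 1 or Cj leaf replicate 1. In trees on Pt 4 were called, 1 higher and 3 lower, against 79.6% of all genes (43.0% higher and 36.6% lower). Cs6g20900 was again higher in leaf (0.80 ± 0.14), and Cs1g02370 (-2.10 ± 0.24), orange1.1t03432 (-1.72 ± 0.54) and Cs2g25300 (-0.99 ± 0.22) were lower. Orange1.1t03432 was not called on log2(FPKM + 0.1), nor without Pt root replicate 2 or Pt leaf replicate 2.

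The scale matters for leaf against root. TMM scaling (trimmed mean of M values, edgeR's correction for library composition) gave factors of 1.05 to 1.08 in leaf, 0.784 to 0.845 in root and 1.14 to 1.19 in stem, which raises root values against the other organs. The median log2 difference of all genes, leaf minus root, was 0.12 on Cj and 0.17 on Pt with TMM, and 0.39 and 0.38 on log2(FPKM + 1). On that FPKM scale the members called were 1 higher and 2 lower in leaf on Cj, and 3 higher and 3 lower on Pt. Applying the rule to TMM-scaled FPKM gave 22 genes, among them 10 of the 11 members; Cs5g28300 was lost.

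**Figure D4:**
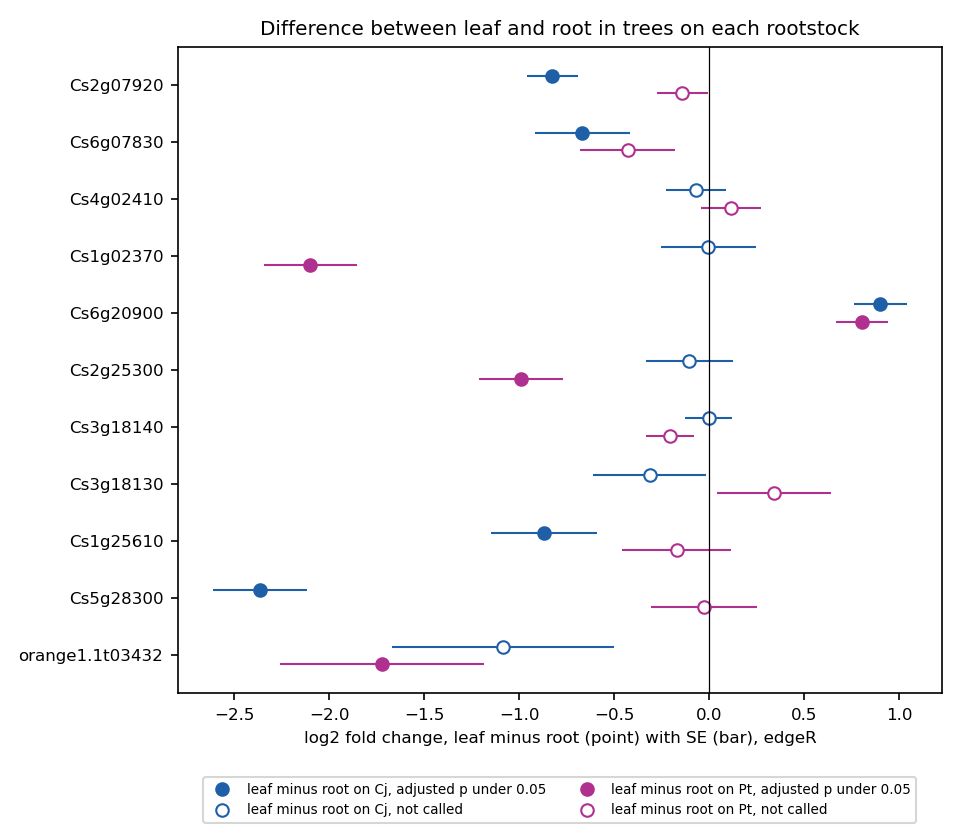
Log2 fold change of leaf minus root (horizontal; bars are SE) for each member (vertical) in trees on Cj and on Pt, from edgeR with 2 libraries per group; filled points have an adjusted p under 0.05. Cs6g20900 is the only member with filled points to the right of 0 on both rootstocks, and Cs5g28300 on Cj (-2.36) and Cs1g02370 on Pt (-2.10) lie farthest to the left.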

How the data were processed

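Each library has one table deposited by the authors, whose columns, per the file headers, are the ID, transcripts, length, expected count and FPKM of each gene. The deposited expected (estimated) counts are not scaled to depth. In FPKM the authors divided by gene length and library size. Libraries were made from poly(A) RNA with random primers, per the labels' protocols. Not given in the sources used here are the aligner, counter, genome build and strandedness, so overlapping or near-identical genes are uncertain.

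Members were chosen on FPKM by the conditions given above; 11 passed, under the limit of 200. The members and lists were chosen with earlier results of these data known. Gene lists and organ markers need names and were not applied. Members are named by fixed rules: widest and narrowest gap to stem, highest and steadiest level, neighbouring IDs and calls per contrast; with 11 members all are given.

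Expected counts were rounded and tested with edgeR 4.0.16 (limma 3.58.1, R 4.3.3; DESeq2 1.42.0 as an alternative): filterByExpr, TMM, 6 group means over all 12 libraries (6 residual degrees of freedom), quasi-likelihood test, Benjamini-Hochberg over 21261 genes. All 11 members passed the filter. The fits were tested on simulated counts. Replicates differed beyond sampling noise (chi-square per degree of freedom 2.86 to 11.8). Depth was 9356633 to 11383332 counts per library, and precision from depth covers counting error only.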

Additional observations from a re-analysis of the deposited data

Results flagged for a closer look

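For Cs5g28300 the log2 difference between Cj and Pt was -0.12 in stem and 2.39 in root, and the interaction term, which was added after seeing the data, was -2.51. Both root libraries of Cj were above both of Pt, while the stems overlapped. The gene was chosen with its stem values capped and its root means within a factor of 5 (4.98), so the call of this term given above is a description. Without each library in turn the term ran from -2.72 to -2.23.

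For Cs1g02370 the leaf and root effects had opposite directions, without overlap between Cj and Pt libraries in either organ. The root effect was called in edgeR. The leaf effect was not called, nor was its unadjusted p under 0.05. Leaves on Cj stood at 8.47 and 10.6 FPKM and leaves on Pt at 5.67 and 7.72, a ratio of means of 1.42. Roots of Cj stood at 6.76 and 7.74 FPKM and roots of Pt at 24.4 and 20.3, a ratio of 0.324. The difference between these effects was not tested, since the choice of members bounds both.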

How the results depend on the processing

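The number of members depends on the settings of the rule. It was 37 at a fold over stem of 1.5, 2 at a fold of 3, 7 at a floor of 5 FPKM, 19 without the bound on group means, 22 on TMM-scaled FPKM and 19 with group means in place of single libraries (this last chosen after seeing the data); it was 12 at a floor of 1 FPKM, 13 without the leaf bound, and 10 to 16 without 1 library. The count called in stem stayed at 0 under every alternative run, and without 1 library (0 to 0), although the count over all genes was 941 with all libraries, 546 and 87 on log2(FPKM + 1) and log2(FPKM + 0.1), 66 with the stem libraries alone (where 10 members were tested), and 101 to 1407 without 1 stem library (101 and 1407 without replicate 1 or 2 of Cj stem, 191 and 286 without replicate 1 or 2 of Pt stem). In roots the count of members called was 8 with the root libraries alone and 4 to 6 without 1 library, against 5 in the main fit. It was 6 on log2(FPKM + 1), on log2(FPKM + 0.1) and with RLE, another correction for library composition. For leaf minus root on Cj it was 3 on log2(FPKM + 1) and 3 on log2(FPKM + 0.1), against 5 in the main fit. On Pt it was 5 with DESeq2, 6 on log2(FPKM + 1) and 4 on log2(FPKM + 0.1), against 4 in the main fit. The interaction count was 2 with DESeq2, 3 on log2(FPKM + 1), 2 on log2(FPKM + 0.1) and 1 to 2 without 1 library (2 without either Cj stem library or without Pt stem replicate 1). The causes were not tested.

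Uncalled stem differences turned sign. Cs3g18140 gave -0.028 on log2(FPKM + 1) and -0.029 on log2(FPKM + 0.1). Without 1 stem library the range was -1.0 to 0.16 for Cs1g02370, -0.072 to 0.088 for Cs3g18140, -0.30 to 0.12 for Cs4g02410, -0.34 to 0.15 for Cs5g28300, -0.47 to 0.51 for Cs6g07830 and -0.10 to 0.77 for orange1.1t03432.

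Same-numbered replicates deviated together only weakly (r across genes -0.06 to 0.13 between groups), and no label ties equal numbers to a shared tree or batch. With the replicate block the counts of members called were 0 in stem, 6 in root, 5 and 4 for leaf minus root on Cj and Pt, and 1 for the interaction. Low stem counts limit the weak members, and also Cs5g28300 and Cs2g25300.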
